A study of Mus musculus with 188 samples.

Results

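Solute carriers are the largest group of membrane transporters in the genome and move sugars, amino acids, nucleotides, ions, metals and metabolites across the plasma membrane and the membranes of organelles. They were taken as every gene whose single annotated symbol starts with Slc followed by a number. This rule gave 252 genes of 49 families among the 11725 genes named on the array. Of these, 250 are transporters, and the other two, Slc9a3r1 and Slc9a3r2, are adaptor proteins that bind a sodium-proton exchanger. A gene was represented by its brightest probe set, a group of short probes for a transcript, and 84 of the genes had more than 1 probe set.

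Most carriers work by coupling the movement of a solute to an ion gradient, by exchange of solutes, or by facilitated diffusion. In the vessel wall, carriers supply smooth muscle and endothelium with glucose, lactate, glutamine and taurine, set intracellular chloride and pH, and clear adenosine and phosphate. Carriers of the mitochondrial family (Slc25) pass metabolites through the inner mitochondrial membrane, and those of the Slc35 family carry nucleotide sugars into the Golgi apparatus and the endoplasmic reticulum.

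Aortic RNA of males, 16 weeks old, labelled wild-type and fed chow, was measured on 188 Affymetrix HT_MG-430A arrays, in log2 values. The 94 strains fell into 28 AXB and BXA strains bred from A/J and C57BL/6J (59 arrays), 28 BXD strains bred from DBA/2J and C57BL/6J (53 arrays), 10 BXH strains bred from C3H/HeJ and C57BL/6J (21 arrays), and 28 inbred strains, with the 4 parents among them (55 arrays). Of the BXD strains, BXD24/TyJ-Cep290<rd16>/J and BXD29-Tlr4<lps-2J>/J carry the alleles written in their names, and BXD32/TyJ was left out of the main fits because an unexplained suffix marks its arrays. Whether a strain's arrays stand for different animals is not in the labels, so a p-value here reflects the spread between arrays alone, and part of it may be technical. The number of arrays, mostly 2 a strain, limits the precision.

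The tissue label was checked against markers. All 8 measured genes of a smooth muscle list of 10 were above the dim reference, with Acta2 at a mean of 12.42 and Myh11 at 9.23. The dim reference is the 95th percentile of the mean levels of 33 olfactory receptor probe sets, 4.05 on the log2 scale. Markers of other tissues were also present to different degrees. The score of a list on an array, used below, is the mean log2 level of its genes there, with each gene centred on its mean over 186 arrays. The mean level of a thymocyte list (9 of 11 genes measured, 7 above the dim reference) ran from 3.36 to 9.48 across arrays, that of a squamous epithelium list (10 of 11 measured, 9 above it) from 3.38 to 9.82, and that of a skeletal muscle list (10 of 10 measured, all above it) from 3.58 to 12.32. In such bulk tissue, fewer cells of a type and less RNA per cell cannot be told apart.

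The carriers whose strain differences recurred in all 3 recombinant families were Slc15a2, Slc35a5 and Slc7a8, although the BXH calls were lost without BXH4/TyJ. The sequences before the start sites of these carriers are shown for description, and were not related to any strain difference. Slc15a2 encodes a proton-coupled importer of di- and tripeptides, Slc35a5 a member of the nucleotide sugar transporter family, and Slc7a8 the light chain of a neutral amino acid exchanger. Each run is the 100 bases before the annotated start, 5′ to 3′ on the gene's strand, from RefSeq on build GRCm38.p6, with capitals for motif matches on either strand. The TATA box was searched as TATAAA, the core promoter GC box as GGGCGG, the E-box as CACGTG and the box named for its letters as CCAAT. The genome build behind the array annotation is not given in the sources used here.
Slc15a2 (chr16:36784963-36785062, minus strand): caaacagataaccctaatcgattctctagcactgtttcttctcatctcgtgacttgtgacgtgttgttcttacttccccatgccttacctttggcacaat
Slc35a5 (chr16:45158674-45158773, minus strand): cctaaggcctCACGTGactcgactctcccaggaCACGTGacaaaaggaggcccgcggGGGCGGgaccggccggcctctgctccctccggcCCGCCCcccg
Slc7a8 (chr14:54781887-54781986, minus strand): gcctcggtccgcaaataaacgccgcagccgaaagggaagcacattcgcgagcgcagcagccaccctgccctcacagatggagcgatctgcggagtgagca
The Slc35a5 window held 2 E-boxes and 2 GC boxes, which did not overlap, and the other two windows held none of the 4 motifs. Among 32851 windows of the same length before starts in the RefSeq table, 3.17% held an E-box, 24.7% a GC box, 18.9% a CCAAT box and 5.56% a TATA box. The table matched 197 of the 252 carriers, and 5.68% of their 264 windows held an E-box, 40.2% a GC box, 18.2% a CCAAT box and 3.03% a TATA box.

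Carrier levels differed between strains for 111 of the 252 genes in limma's moderated F test, run over 84 strains that had at least 2 arrays (177 in all; the strain ranges below also cover the 9 strains with 1 array, unless the strains tested are named), with Benjamini-Hochberg adjustment over all 22327 probe sets and calls below 0.05. This share, 44.0%, lies near the 46.5% of all probe sets that passed, and 48.8% of all genes passed when each was represented by its brightest probe set. Of the carriers, 140 had a mean above the dim reference, and 101 of these passed (72.1%), beside 66.6% of all genes above it. Of the 112 dim carriers, 10 passed. The part of a gene's variance found between strains, its intraclass correlation (ICC), had a median of 0.160 over the carriers and 0.190 over all genes. It exceeded 0.5 in 17 carriers (6.75%) and in 4.90% of all genes.

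Among the 111, the SD among strains had a median of 0.29 and the SD between arrays of a strain a median of 0.40. The among-strain SD was the larger of these in 17 carriers. The median distance from the lowest to the highest strain mean was 2.29, and it exceeded 2 in 72 carriers. Arrays fell into lower and higher title numbers, to 1038 and from 1067. Within the lower numbers alone 79 carriers passed (29.8% of all probe sets), and within the higher numbers 42 (13.9% of all probe sets).

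**Figure D1:**
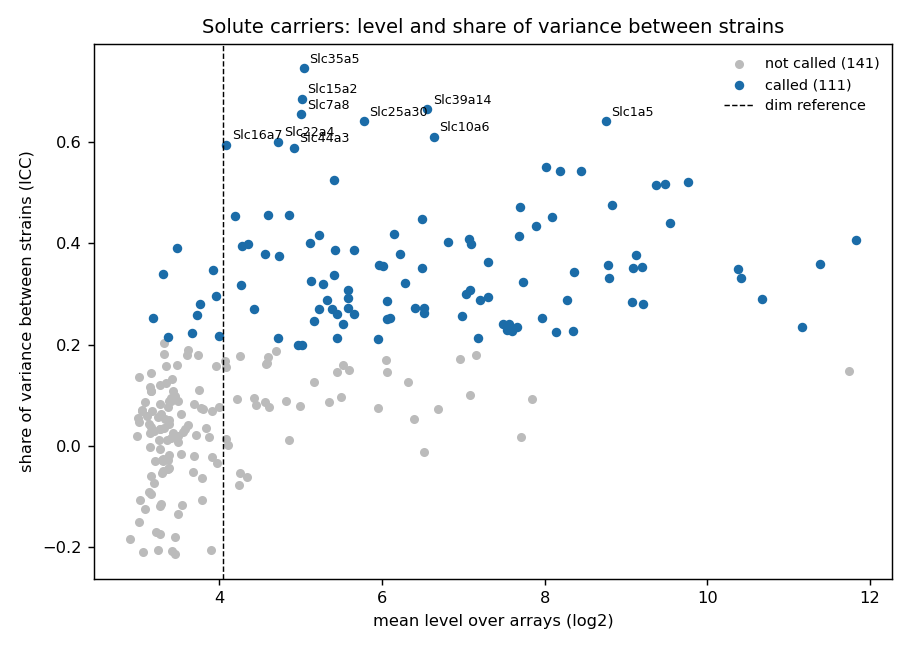
Each point is a solute carrier, placed by its mean log2 level over 186 arrays (horizontal) and its share of variance between strains, the ICC (vertical); blue points are the 111 called by limma and grey points the 141 that were not, and the dashed line is the dim reference at 4.05. Slc35a5, Slc15a2, Slc39a14, Slc7a8, Slc1a5 and Slc25a30 stand highest, with ICCs of 0.64 or more, and most points left of the line are grey.

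By substrate, the mitochondrial carriers formed the class with the most members, 31, of which 23 were called (74.2%, beside the 46.5% of all probe sets and 48.8% of all genes). Of the 25 above the dim reference 21 were called (84.0%, beside 66.6% of all genes above it). Their median ICC was 0.271. Among those called were Slc25a39, a carrier required for mitochondrial glutathione (10.94 in NZW/LacJ to 12.31 in BTBR T<+> tf/J), and Slc25a20, the carnitine-acylcarnitine exchanger (10.79 in BXA7/PgnJ to 11.85 in BXD29-Tlr4<lps-2J>/J). Slc25a4, an ADP/ATP exchanger, ran from 10.67 to 12.34 and did not pass (adjusted p = 0.104, limma).

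The nucleotide sugar and acetyl-CoA carriers had 12 of 19 called, the metal carriers 12 of 26, the amino acid carriers 11 of 26 and the sugar carriers 7 of 15, or 63.2%, 46.2%, 42.3% and 46.7%. All but the first of these shares lie near the 46.5% of all probe sets. Among members above the dim reference, the counts in this order were 12 of 16, 11 of 21, 11 of 14 and 7 of 11. These are 75%, 52.4%, 78.6% and 63.6%, beside 66.6% of all genes above it. In the metal class, the called members included Slc48a1, a heme transporter (6.61 in RIIIS/J to 8.94 in BTBR T<+> tf/J). Among sugar carriers, Slc2a4, the insulin-responsive glucose transporter of muscle and fat, ran from 7.06 in RIIIS/J to 10.31 in AXB6/PgnJ. Among amino acid carriers, Slc3a2, the heavy chain that partners Slc7a8 at the membrane, ran from 8.56 in BXD9/TyJ to 10.48 in AXB2/PgnJ (ICC 0.514).

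Smaller classes had fewer members, which makes their shares less certain. In the choline class 3 of 4 were called (75%), and in the neurotransmitter and osmolyte class 6 of 15 (40%). The organic ion class had 5 of 18 (27.8%) and the bicarbonate and anion class 5 of 15 (33.3%), beside 48.8% of all genes. Among members above the dim reference, the counts in this order were 3 of 3, 4 of 4, 5 of 6 and 4 of 5. Of all genes above it, 66.6% were called. In the sodium-coupled and vesicular classes 0 of 10 and 0 of 8 passed in limma's test (1 and 0 at an unadjusted p under 0.05), and only 1 member of each class was above the dim reference. The fatty acid carriers had 2 of 5 called, Slc27a1 (ICC 0.474) and Slc27a2 (8.80 in C57L/J to 11.31 in BXD38/TyJ).

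**Figure D2:**
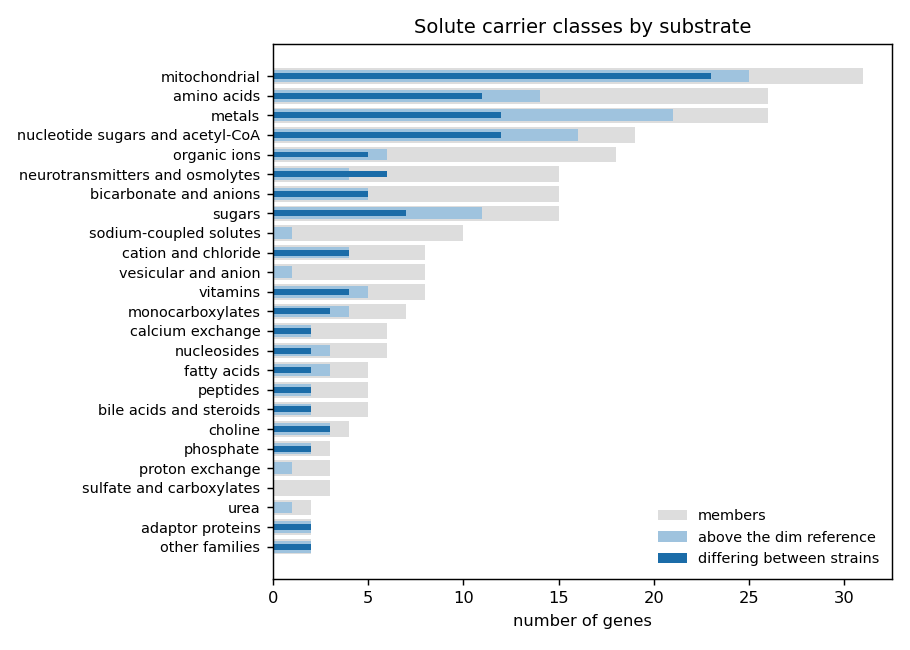
Bars give the number of genes in each substrate class: all members (grey), those with a mean above the dim reference (light blue) and those called as differing between strains by limma (dark blue). The mitochondrial class has 31 members, of which 23 were called, and the sodium-coupled class has 10, of which 0 were called.

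A list of 12 carriers tied to the vessel wall had 10 measured members, of which 5 passed, a share near the 48.8% of all genes, with a median ICC of 0.192. The 5 were the phosphate importers Slc20a1 (5.40 in C57BL/6J to 8.42 in RIIIS/J) and Slc20a2 (6.96 in RIIIS/J to 9.02 in BXH2/TyJ), the chloride importer Slc12a2, the taurine transporter Slc6a6 (7.10 in SEA/GnJ to 8.73 in BXA12/PgnJ) and the glucose transporter Slc2a1 (5.15 in 129X1/SvJ to 7.20 in BXD13/TyJ among the strains tested, with 4.64 on the single array of BXD11/TyJ, which was not). RIIIS/J was thus highest for 1 phosphate importer and lowest for the other. Its 2 arrays also had thymocyte scores of at least 4.78 and smooth muscle scores of -0.96 and -1.55. The highest recombinant strain of each family for Slc20a1 held a thymocyte-rich array too. In BXA7/PgnJ the arrays read 6.74 and 8.41 at thymocyte scores of -0.99 and 4.57, in BXH9/TyJ 6.34 and 8.21 at -0.53 and 4.72, and the single BXD27/TyJ array 7.58 at 2.22. On the same arrays of BXA7/PgnJ and BXH9/TyJ Slc20a2 went the other way, from 8.49 to 6.70 and from 8.20 to 7.07. The part of these markers in either result was not tested. The equilibrative nucleoside transporter Slc29a1 ran from 7.01 to 9.02 and did not pass (adjusted p = 0.224, limma). The other four, Slc2a10, Slc8a1, Slc7a1 and Slc7a2, had means of 3.12 to 3.80, below the dim reference.

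Slc15a2, the peptide importer, had the widest among-strain SD of the carriers, 1.34, with an ICC of 0.685 (95% interval 0.559 to 0.781). The 2 arrays of CBA/J, the lowest strain, gave 3.16 and 3.30, and the 2 of C58/J, the highest, gave 8.02 and 8.41. Arrays of a strain could still lie far apart, with 9.66 and 6.72 in BXH9/TyJ and 9.13 and 6.73 in BXD33/TyJ. In both strains the higher array had the higher thymocyte score, 4.72 against -0.53 in BXH9/TyJ and 3.40 against -0.69 in BXD33/TyJ, and the part of thymocyte markers in the gene's level was not tested. The thymocyte scores of the C58/J arrays were -0.75 and 0.89. The low strains lay under the dim reference, so the gene was near background in them. The adjusted p was 1.34e-13 (limma). A second, dimmer probe set of the gene also passed (ICC 0.259) and followed the first over strain means with r = 0.438.

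All 4 parents of the recombinant strains were low for Slc15a2. C57BL/6J arrays read 3.08, 3.19 and 4.39, A/J 3.91 and 3.45, DBA/2J 3.98 and 3.90, and C3H/HeJ 3.33 and 3.85, and no parental contrast passed (adjusted p = 0.978, 1.000 and 0.994, limma). Many of their descendants were high. Strain means ran from 3.29 to 7.45 in AXB/BXA (median 4.77), from 3.29 to 7.93 in BXD (4.89) and from 3.63 to 8.19 in BXH (5.22), against a median of 3.98 in the inbred strains. A mean above 6 was reached by 9 of 28 AXB/BXA, 12 of 27 BXD, 4 of 10 BXH and 4 of 28 inbred strains, the last being C58/J, CE/J, FVB/NJ and SWR/J. In the BXH family 6 strains lay at or below 5.68 and 4 at or above 6.75.

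Slc35a5 had the highest ICC of the carriers, 0.745 (0.638 to 0.825). Its lowest strain was BTBR T<+> tf/J, with 3.38 and 3.46, and its highest was BXH9/TyJ, with 6.50 and 5.90. In the same order of arrays, thymocyte scores were -0.67 and -0.21 in BTBR T<+> tf/J and 4.72 and -0.53 in BXH9/TyJ. The part of thymocyte markers in Slc35a5 was not tested. C57BL/6J arrays read 6.33, 5.11 and 5.60, while A/J read 4.20 and 4.69, DBA/2J 4.46 and 4.42 and C3H/HeJ 4.33 and 4.31. The C57BL/6J arrays were all above those of the other parents. Of the 3 parental contrasts of this gene, only that with C3H/HeJ passed. The recombinant strains are divided below at the largest gap between neighbouring strain means of each family. In BXD, 11 strains lay at or below 4.79 and 16 at or above 5.28, and in BXH, 6 lay at or below 4.87 and 4 at or above 5.93. In AXB/BXA the largest gap was narrow, with 6 strains at or below 4.55 and 22 at or above 4.83. The AXB/BXA means ran from 4.17 to 6.19, with 19 of 28 nearer to C57BL/6J than to A/J. Means outside the range of a family's parents were found in 18 of 28 AXB/BXA, 18 of 27 BXD and 5 of 10 BXH strains. Of the other 4 probe sets of Slc35a5, 1 also passed (ICC 0.587) and followed the brightest over strain means with r = 0.920, while its mean, 3.57, was below the dim reference.

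High Slc15a2 and high Slc35a5 coincided in the recombinant strains. Of the 29 strains with Slc15a2 above 6, 25 had Slc35a5 above 5. These were 9 of 9 in AXB/BXA, 12 of 12 in BXD, 3 of 4 in BXH and 1 of 4 among inbred strains. The reverse did not hold, since 17 strains with Slc35a5 above 5 had Slc15a2 at or below 6, C57BL/6J among them. Slc35a5 was above 5 in 42 of all 93 strains. By family this was 19 of 28 AXB/BXA, 16 of 27 BXD, 4 of 10 BXH and 3 of 28 inbred strains. Both genes lie on chromosome 16. The levels 6 and 5 were chosen after the values had been seen, and the coincidence is a description with no test.

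**Figure D3:**
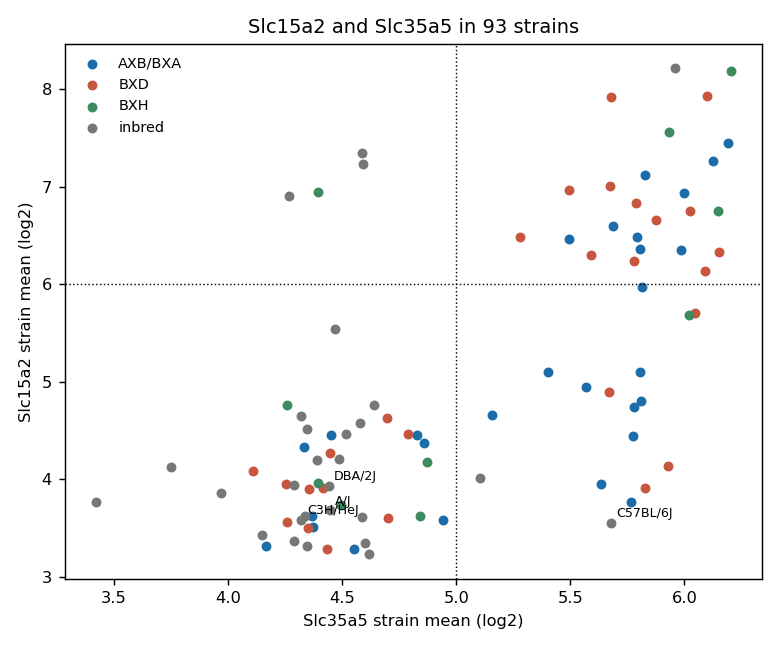
Each point is a strain, placed by its mean log2 level of Slc35a5 (horizontal) and Slc15a2 (vertical), coloured by family; the dotted lines mark 5 and 6. The upper right field holds 25 strains and the upper left 4, and the 4 parental strains lie in the lower part.

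Slc7a8, the amino acid exchanger's light chain, had an among-strain SD of 1.04 and an ICC of 0.655 (0.520 to 0.759). AKR/J was lowest, with 3.48 and 3.72, and AXB1/PgnJ highest, with 8.84 and 8.80, followed by C58/J with 8.65 and 8.10. Means above 6 were found in 18 of 93 strains, 6 of them AXB/BXA, 6 BXD, 6 inbred and 0 of 10 BXH. Brown adipocyte scores, whose list is described below, were -1.01 and -0.99 in AXB1/PgnJ and -0.11 and -0.28 in AKR/J. Of the inbred strains above 6, C58/J scored -0.39 and -1.07, NOD/ShiLtJ -2.28 and -0.13, and C57L/J -1.28 and -0.17. The others were SJL/J at -0.27 and 0.19, C57BL/6J at 0.39, 0.23 and 0.45, and I/LnJ at 0.69. The part of these markers in Slc7a8 was not tested. In BXH the highest strain mean was 5.76, while the C57BL/6J parent stood at 7.24. In BXD 14 strains lay at or below 4.31 and 13 at or above 5.02.

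Slc1a5, the sodium-dependent importer of glutamine and other neutral amino acids, ran from NZW/LacJ (6.81 and 7.56) to BXH19/TyJ (9.55 and 9.88), with an ICC of 0.641 (0.503 to 0.749). Slc7a10, an exchanger of small neutral amino acids, ran from RIIIS/J (4.32 and 3.80) to BXH19/TyJ (7.42 and 7.74), with an ICC of 0.525. Scores of an adipocyte list (7 of 10 genes measured, 6 above the dim reference) were -0.73 and -0.73 in RIIIS/J and 0.41 and 0.34 in BXH19/TyJ. The RIIIS/J arrays also had thymocyte scores of at least 4.78, against -0.77 and -1.07 in BXH19/TyJ. NZW/LacJ, the highest inbred strain for Slc7a10 at 7.06, had adipocyte scores of -0.21 and -0.17. The part of these markers in Slc7a10 was not tested. The array pairs of the highest and lowest strains did not overlap for Slc1a5 or Slc7a10. These strains were picked as the ends of the range, so the gap between their arrays is no test.

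A set of carriers of different substrates had AXB1/PgnJ and C58/J at the same end, as Slc7a8 did. Slc39a14, an importer of zinc, iron and manganese, read 9.85 and 9.96 in AXB1/PgnJ and 9.49 and 9.44 in C58/J, and only these 2 of 93 strains had a mean above 8. The lowest strain, RIIIS/J, read 5.30 and 5.58. Its ICC was 0.665 (0.533 to 0.766), and a second probe set had AXB1/PgnJ highest as well. Slc25a33, a mitochondrial pyrimidine nucleotide carrier, read 10.45 and 10.78 in AXB1/PgnJ, 9.09 and 9.91 in C58/J and 6.06 and 5.77 in RIIIS/J. Slc10a6, an importer of sulfated steroids, read 8.22 and 8.24 in AXB1/PgnJ, 8.19 and 8.14 in C58/J and 4.89 and 4.73 in RIIIS/J. NOD/ShiLtJ was among the 3 highest strains for Slc39a14 and Slc10a6, but its arrays lay apart, at 9.28 and 6.62 for the former and 9.50 and 6.90 for the latter. Brown adipocyte markers (6 of 8 genes measured, all above the dim reference, with scores from -2.28 to 0.75 over all arrays) were low in the same samples. Their scores were -1.01 and -0.99 in AXB1/PgnJ, -0.39 and -1.07 in C58/J, and -2.28 and -0.13 in NOD/ShiLtJ, whose lower score fell on the array with the higher carrier levels. In C57L/J, Slc25a33 read 10.65 at a score of -1.28 and 7.26 at -0.17. The scores were also low in RIIIS/J, -0.88 and -0.70, at the opposite end of these carriers. The RIIIS/J arrays also had thymocyte scores of at least 4.78 and smooth muscle scores of -0.96 and -1.55. Brown adipocyte scores were low too in BXD42/TyJ, at -1.28 and -0.76, and on 1 array of KK/HlJ, at -0.37 and -1.31. Neither of these strains had a Slc39a14 mean above 8. The part of brown adipocyte, thymocyte and smooth muscle markers in these levels was not tested.

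The same 2 strains were low for other carriers. Slc16a1, the transporter of lactate, pyruvate and ketone bodies, read 7.19 and 7.29 in AXB1/PgnJ and 7.74 and 7.47 in C58/J, against 10.73 in the highest strain, BXD11/TyJ, which had 1 array. Slc25a42, the mitochondrial coenzyme A carrier, read 6.60 and 6.47 in AXB1/PgnJ and 6.95 and 6.78 in C58/J, against 9.89 in BXD11/TyJ. The low brown adipocyte scores of AXB1/PgnJ and C58/J stand beside these values too, while BXD11/TyJ scored 0.34. In C57L/J, Slc16a1 read 6.04 at a score of -1.28 and 9.12 at -0.17, and in NOD/ShiLtJ Slc25a42 read 6.57 at -2.28 and 8.87 at -0.13. BXD42/TyJ also scored low, at -1.28 and -0.76. No BXD strain tested had a mean under 8.94 for Slc16a1 or under 7.69 for Slc25a42. The part of these markers was not tested. The ICC was 0.516 for Slc16a1 and 0.542 for Slc25a42. This grouping of carriers was noticed in the strain ends and was given no test.

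Ion and sugar carriers differed too, often with a wide spread between arrays of a strain. Slc12a2, the sodium-potassium-chloride importer, was lowest in KK/HlJ, whose arrays read 5.07 and 7.71, and highest in BXD6/TyJ, with 10.07 and 10.21 (ICC 0.358). Both of its other probe sets passed and followed it with r = 0.894 and 0.936, with BTBR T<+> tf/J lowest. Slc4a4, the sodium bicarbonate cotransporter, ran from KK/HlJ (6.18 and 6.94) to AXB15/PgnJ (10.06 and 10.13). Slc2a3, a high-affinity glucose transporter, ran from AXB8/PgnJ (4.02 and 4.33) to BXA13/PgnJ (7.52 and 7.70). In the same order of arrays, thymocyte scores were 2.76 and -0.61 in KK/HlJ and 2.81 and 1.02 in BXA13/PgnJ. They were -0.79 or lower in BXD6/TyJ, AXB15/PgnJ and AXB8/PgnJ. In BTBR T<+> tf/J, lowest on the other Slc12a2 probe sets, they were -0.67 and -0.21. The part of thymocyte markers in Slc12a2, Slc4a4 and Slc2a3 was not tested. Within the higher array numbers alone, Slc12a2, Slc4a4 and Slc2a3 did not pass (adjusted p = 0.0713, 0.178 and 0.0758, limma), and neither did Slc25a33 (0.139) nor Slc37a2 (0.0986).

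Slc16a7, a lactate and pyruvate transporter related to Slc16a1, ran from AXB6/PgnJ (3.26 and 3.25) to LP/J (5.83 and 6.16), with an ICC of 0.594. Slc25a30, a mitochondrial carrier, ran from BXD39/TyJ, with 4.72 on 1 array, to FVB/NJ, with 8.69 and 7.67 (ICC 0.640), and 2 of its other 4 probe sets passed, both with FVB/NJ highest. Slc25a35, a mitochondrial carrier without a settled substrate, ran from C58/J (6.41 and 6.01) to BTBR T<+> tf/J (9.34 and 9.07). Slc37a2, a sugar phosphate exchanger of the endoplasmic reticulum, ran from BXD18/TyJ, with 3.39 on 1 array, to SJL/J, with 6.54 and 6.03. The adaptor Slc9a3r1 ran from BXD11/TyJ, with 5.59 on 1 array, to C57L/J, whose arrays read 9.73 and 7.60. The highest strains of Slc37a2 and Slc9a3r1 had high thymocyte scores, 2.46 and 3.69 in SJL/J and 3.68 and 2.95 in C57L/J. The next highest for Slc9a3r1 were RIIIS/J, with at least 4.78, and AXB2/PgnJ, whose arrays read 9.15 at a score of 3.52 and 7.40 at -1.11. The part of thymocyte markers in both genes was not tested.

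For Slc4a1 and Slc46a2, markers of other cells stand beside the strain differences. Slc4a1, the chloride-bicarbonate exchanger of red cells, was highest in KK/HlJ, with 7.04 and 7.29, and lowest in BXD28/TyJ, with 3.36 and 3.93. Across 93 strain means it followed the mean of an erythroid list (4 of 7 genes measured, 2 above the dim reference) with r = 0.795 and rho = 0.838 (permutation p = 1e-05 for each, the smallest that 100000 resamples can give; adjusted over 7 relations 1.17e-05 and 1.75e-05). Without the 2 strains farthest from the median r was 0.801, and within the lower and higher array numbers it was 0.806 and 0.766. Its strain effect did not pass within the lower array numbers (adjusted p = 0.0874, limma).

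Slc46a2, known from thymic stroma, was highest in RIIIS/J, with 6.10 and 6.00, and lowest in I/LnJ, with 2.94 on 1 array. RIIIS/J also held the array with the highest thymocyte list level, and its 2 arrays stood at least 4.78 above the mean thymocyte score. Other high strains had low thymocyte and high squamous epithelium scores, with 5.88 on the single BXD39/TyJ array (thymocyte -1.03, squamous 4.73) and 5.95 and 5.27 in AXB23/PgnJ (thymocyte -0.92 and -0.56, squamous 4.31 and 4.10). In BXH9/TyJ the arrays read 6.55 at a thymocyte score of 4.72 and 3.15 at -0.53. The strain effect on Slc46a2 passed in the main test (adjusted p = 0.00644, limma), and did not pass once the scores of thymocyte, skeletal muscle and squamous epithelium genes entered the model (0.946), without the 70 arrays whose thymocyte or squamous score exceeded 1 (0.399), or within the lower or the higher array numbers (0.0541 and 0.160). With the same scores in the model the number of carriers called was again 111, but not the same set, since Slc46a2 was lost. Without those 70 arrays the number was 92 of 252.

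Other carriers with a known cell type were related to that type's markers to different degrees, each r having a permutation p of 1e-05 (the smallest possible; 1.17e-05 adjusted over the 7 relations) unless given. Slc11a1, the phagosomal metal transporter of macrophages, followed the macrophage list with r = 0.686 (rho 0.647, p = 1e-05; r 0.647 without 2 strains, 0.647 and 0.648 within the lower and higher array numbers). Slc27a2 followed the brown adipocyte list with r = 0.594 (rho 0.572, p = 1e-05; r 0.608, 0.637 and 0.562 in the same order). The macrophage peptide transporter Slc15a3, whose mean of 3.68 was below the dim reference, gave r = 0.507 with the macrophage list (rho 0.486, p = 1e-05; r 0.457, 0.637 and 0.195), so the relation was weak within the higher numbers. Slc2a10 gave r = 0.471 with the smooth muscle list (rho 0.384, permutation p = 0.00017; r 0.443, 0.578 and 0.351). Slc8a1 gave r = 0.427 with the cardiac muscle list (rho 0.410, permutation p = 4e-05; r 0.440, 0.468 and 0.334). Slc2a4 was not related to the skeletal muscle list at the threshold (r = 0.164, permutation p = 0.119; rho 0.148, p = 0.158; r 0.143, 0.104 and 0.205). Both Slc2a10 and Slc8a1 had means below the dim reference.

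The most ends of the range were held by BTBR T<+> tf/J and RIIIS/J, 30 each, and the other ends were spread over many strains. BTBR T<+> tf/J was the highest strain for 25 of the 111 called carriers and the lowest for 5, and RIIIS/J was the lowest for 25 and the highest for 5. Over all 5726 genes called, BTBR T<+> tf/J was highest for 14.8%, beside 22.5% of the carriers, and lowest for 9.13%, beside 4.50%. RIIIS/J was lowest for 19.0% of all genes called, beside 22.5% of the carriers, and highest for 17.5%, beside 4.50%. Of the carriers with BTBR T<+> tf/J highest, 7 were mitochondrial (Slc25a10, Slc25a22, Slc25a23, Slc25a28, Slc25a35, Slc25a39 and Slc25a44), 28.0% of the 25, beside 20.7% among all carriers called. KK/HlJ held 14 ends and AXB1/PgnJ 12. Without BTBR T<+> tf/J in the fit the number of carriers called was 100. The thymocyte scores given above for RIIIS/J move with its ends, and their part in them was not tested.

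The parental strains were compared to see which carriers differed between the founders of each family. All 3 contrasts share the 3 C57BL/6J arrays. Between A/J and C57BL/6J, 2 carriers passed (0.794%, beside 0.645% of all probe sets in either direction). Slc28a2, a sodium-coupled importer of purine nucleosides, read 6.87 and 6.59 in A/J and 4.53, 4.09 and 5.38 in C57BL/6J, a difference of 2.07 (SE 0.44, adjusted p = 0.00309, limma). Slc35b1, a nucleotide transporter of the endoplasmic reticulum, read 7.46 and 7.69 in A/J and 8.24, 8.29 and 7.95 in C57BL/6J, a difference of -0.58 (SE 0.14, adjusted p = 0.0118, limma). In both, the arrays of the strains did not overlap, which is no further test, because the genes were picked by this contrast. Neither call held without A/J replicate 1, and neither held without C57BL/6J replicate 2, while the Slc35b1 call was also lost without C57BL/6J replicate 1 and with array medians subtracted.

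Between DBA/2J and C57BL/6J, 2 carriers passed as well (0.524% of all probe sets). Slc7a8 read 3.72 and 4.26 in DBA/2J and 7.75, 6.86 and 7.10 in C57BL/6J, a difference of -3.25 (SE 0.68, adjusted p = 0.00228, limma). Slc16a7 read 5.26 and 5.47 in DBA/2J and 4.15, 3.76 and 3.73 in C57BL/6J, a difference of 1.49 (SE 0.38, adjusted p = 0.0383, limma). Slc7a8 lost its call only without DBA/2J replicate 1 (0.154). Slc16a7 lost its call without any 1 of the 5 arrays, and also with array medians subtracted or array number as a covariate.

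Between C3H/HeJ and C57BL/6J, 6 carriers passed (2.38%, beside 1.25% of all probe sets), 5 lower and 1 higher in C3H/HeJ (0.735% and 0.511% of all probe sets). Slc1a5 read 7.50 and 7.37 in C3H/HeJ and 9.69, 9.86 and 9.21 in C57BL/6J, a difference of -2.15 (SE 0.31, adjusted p = 7.74e-07, limma). It passed under all 13 alternatives tried for it, with adjusted p from 1.37e-08 to 0.000961. Slc7a8 read 3.82 and 3.97 in C3H/HeJ, a difference of -3.34 (SE 0.68, adjusted p = 0.00117, limma), and its call was lost only without C3H/HeJ replicate 1 (0.0603). The glutamine importer and the amino acid exchanger's light chain were thus both lower in C3H/HeJ.

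The other four calls were each lost when single arrays were left out. Slc35a5 was lower in C3H/HeJ by -1.36 (SE 0.36, adjusted p = 0.0288, limma). Slc25a26, the mitochondrial importer of S-adenosylmethionine, read 4.84 and 4.84 in C3H/HeJ and 5.92, 6.49 and 5.66 in C57BL/6J, a difference of -1.18 (SE 0.30, adjusted p = 0.0220). Slc28a2 was higher by 1.69 (SE 0.44, adjusted p = 0.0278). All of these calls were lost without C3H/HeJ replicate 1, replicate 2 or C57BL/6J replicate 1, and those of Slc25a26 and Slc28a2 also without C57BL/6J replicate 2.

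Slc25a37, the mitochondrial iron importer of erythroid and other cells, was lower by -0.96 (SE 0.27, adjusted p = 0.0452, limma) on its brightest probe set, of the type that Affymetrix marks as open to matches with other sequences. Its other probe set differed the opposite way, by 1.67 (adjusted p = 0.0774), and the probe sets followed each other with r = -0.12 over strain means, so the direction for this gene is uncertain. Its call was also lost without either C3H/HeJ array, without C57BL/6J replicate 1 or 2 and with array medians subtracted. Without C57BL/6J replicate 3, the counts of carriers called rose to 5, 3 and 13 for A/J, DBA/2J and C3H/HeJ.

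**Figure D4:**
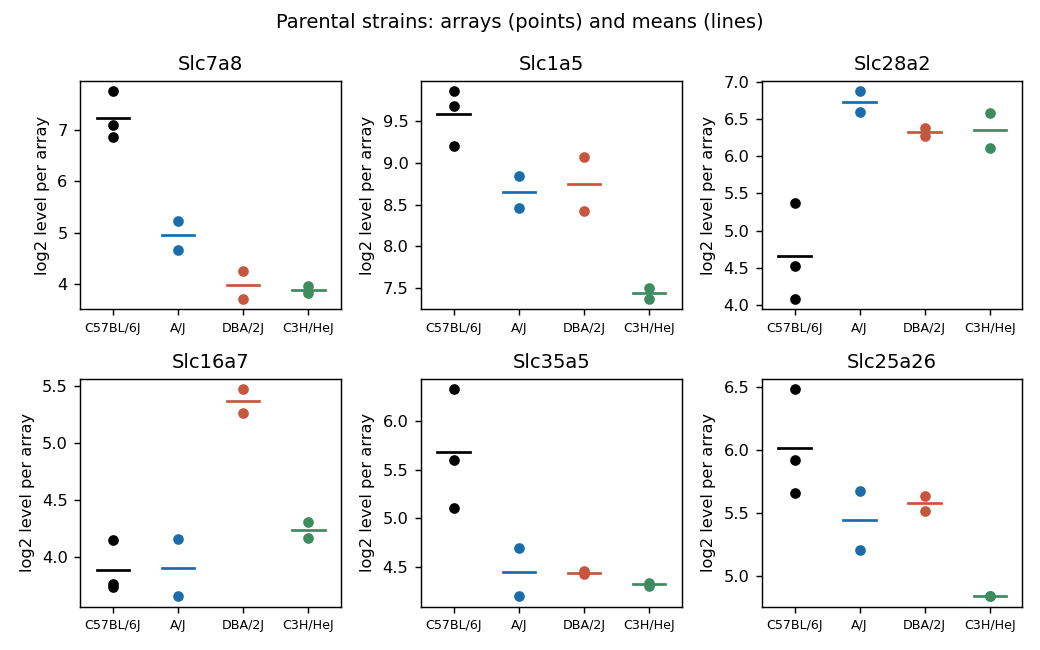
Log2 levels of 6 carriers in the parental strains, with a point for each array (3 for C57BL/6J and 2 for the others) and a line at the strain mean. The C57BL/6J arrays lie above all others for Slc7a8, Slc1a5 and Slc35a5 and below all others for Slc28a2.

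Segregation was tested within each recombinant family without parental arrays. In AXB/BXA (27 strains, 58 arrays) 12 carriers passed (4.76%, beside 3.81% of all probe sets). In BXD (22 strains, 46 arrays) 44 passed (17.5%, beside 15.1%), and in BXH (9 strains, 20 arrays) 6 passed (2.38%, beside 1.26%). In all, 49 carriers passed in at least 1 family, 7 in exactly 2, and Slc15a2, Slc35a5 and Slc7a8 in all 3. The 7 were Slc10a6, Slc16a1, Slc25a42, Slc39a14 and Slc44a3, called in AXB/BXA and BXD, Slc1a5 in AXB/BXA and BXH, and the serotonin transporter Slc6a4 in BXD and BXH.

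In AXB/BXA, the highest ICC was that of Slc25a33, 0.669, followed by Slc39a14, 0.654 (adjusted p = 0.000456 and 0.000707, limma). Both had AXB1/PgnJ apart from the other 27 strains, at 10.61 against 8.54 or less for Slc25a33 and at 9.91 against 7.60 or less for Slc39a14. Without AXB1/PgnJ neither passed (adjusted p = 0.271 and 0.488), and the number of carriers called fell from 12 to 4. Slc44a3, a member of the choline transporter-like family, ran from 4.15 in AXB4/PgnJ to 5.84 in AXB23/PgnJ (ICC 0.580), and Slc35a5 had an ICC of 0.552. Both passed with each strain left out in turn.

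In BXD, the highest ICCs were those of Slc35a5 (0.867), Slc25a42 (0.792), Slc7a8 (0.765) and Slc25a30 (0.736), and each passed with every strain left out in turn (largest adjusted p = 0.00521, limma). Among the 22 strains tested, Slc25a42 ran from 7.69 in BXD33/TyJ to 9.37 in BXD38/TyJ, with the parents at 8.59 and 9.29. The single arrays of BXD27/TyJ and BXD11/TyJ, which were not in this test, read 6.66 and 9.89. Slc25a30 ran from 4.88 in BXD33/TyJ to 6.93 in BXD8/TyJ, with the parents at 5.53 and 5.93, and the single BXD39/TyJ array, also outside the test, read 4.72. With the BXD32/TyJ arrays included 25 carriers passed.

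In BXH, the highest ICCs were those of Slc1a5 (0.862), Slc7a8 (0.852), Slc6a4 (0.784) and Slc15a2 (0.765). For Slc1a5 the strains ran from 7.98 in BXH4/TyJ to 9.72 in BXH19/TyJ, with the parents at 7.44 and 9.58. For Slc6a4 BXH7/TyJ, at 5.27, stood above the other 9, at 4.89 or less. These calls rested on BXH4/TyJ, which had 4 arrays: without it limma called 0 carriers, and the adjusted p of the 4 named genes rose to between 0.103 and 0.266. Without BXH2/TyJ or BXH9/TyJ 10 carriers passed. Slc6a4 also lost its call without BXH7/TyJ, and Slc15a2 without BXH22/KccJ.

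**Figure D5:**
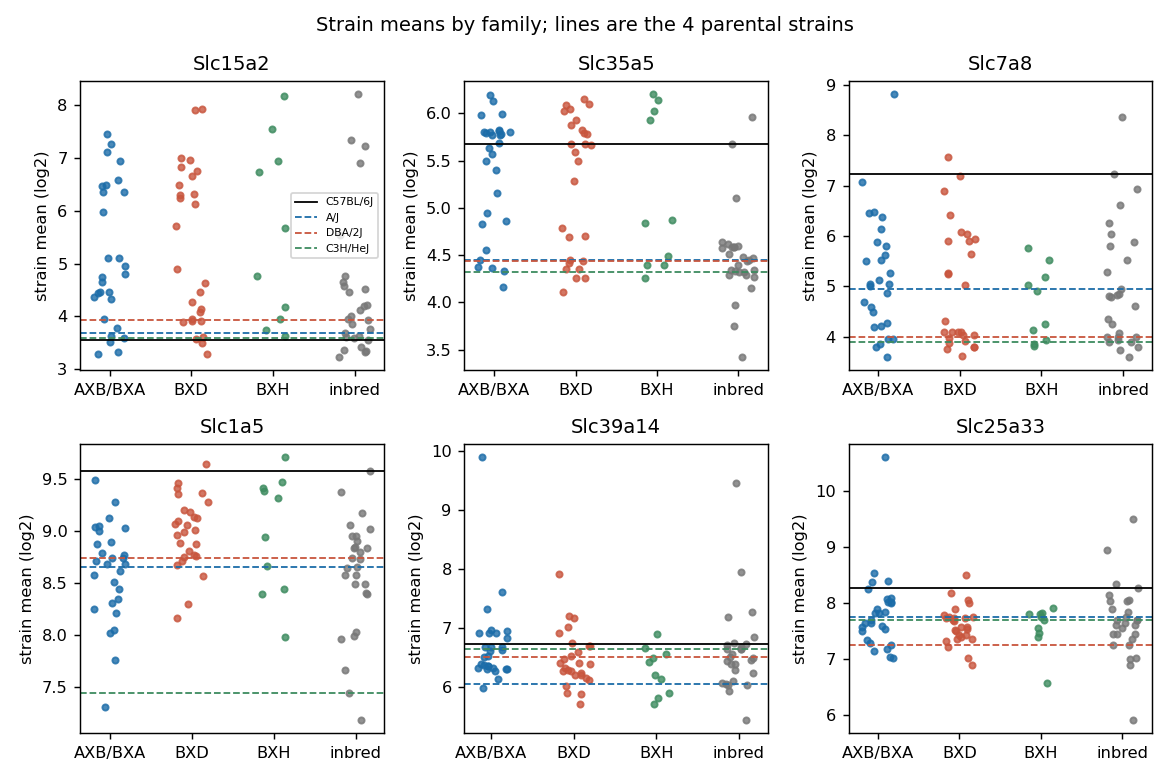
Strain means (log2) of 6 carriers in the AXB/BXA, BXD, BXH and inbred strains, with a point for each strain (horizontal scatter within a family only separates points) and lines for the 4 parental strains. For Slc15a2 many recombinant strains lie far above all 4 lines, for Slc35a5 the recombinant strains gather near the lines, and for Slc39a14 and Slc25a33 AXB1/PgnJ stands alone at the top of AXB/BXA, at 9.91 and 10.61.

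Family means were compared with the strain as the replicate. Between AXB/BXA and BXD, 4 carriers passed (1.59%, beside 2.22% of all probe sets), all lower in AXB/BXA (1.31% of all probe sets were lower). Slc12a2 averaged 8.64 ± 0.63 (SD) over 28 AXB/BXA strains and 9.22 ± 0.49 over 27 BXD strains, a difference of -0.58 (SE 0.16, adjusted p = 0.0308, limma). Slc16a7 averaged 3.75 ± 0.29 and 4.27 ± 0.54, a difference of -0.52 (SE 0.11, adjusted p = 0.00265). The AXB/BXA mean of Slc16a7 was below the dim reference, and DBA/2J was the high parent of BXD for it.

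Slc19a2, a thiamine importer, averaged 6.09 ± 0.36 and 6.59 ± 0.56, a difference of -0.50 (SE 0.12, adjusted p = 0.00772, limma), and Slc40a1, the iron exporter, 7.03 ± 0.54 and 7.49 ± 0.40, a difference of -0.46 (SE 0.12, adjusted p = 0.0229). The Slc40a1 call was lost with the gene's most variable probe set, whose difference was -0.24 (adjusted p = 0.480), and with BXD32/TyJ included (0.0768). The ranges of the families overlapped for each of Slc12a2, Slc16a7 and Slc19a2. Slc12a2 missed the threshold without AXB2/PgnJ (0.0502), with BXD32/TyJ included (0.0637) and without the 70 arrays of high thymocyte or squamous score (0.0658), and Slc19a2 missed it without those arrays (0.0586). The count was 7 without BXD2/TyJ or BXD22/TyJ.

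Between AXB/BXA and BXH, 0 carriers passed in limma's test, while 17 had an unadjusted p under 0.05, and 0.322% of all probe sets passed. Between BXD and BXH only Slc19a2 passed (0.184% of all probe sets), at 5.90 ± 0.23 over 10 BXH strains, a difference of 0.69 (SE 0.16, adjusted p = 0.0409). That call was lost in 21 of the 37 fits that left out a strain.

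Among the called carriers, 46 had another probe set, and 45 of these 76 other probe sets passed. Over strain means they followed the brightest with a median r of 0.724, and 4 had r below 0. The share of carriers seen to differ between strains is therefore that of 1 probe set a gene.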

How the data were processed

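Aorta RNA of 94 mouse strains had been hybridised to 188 arrays. GCOS and RMA are named, without versions, per the submitters' processing notes. The authors deposited log2 values in a single file, with 1 for each probe set on each array. RMA normalises arrays to a common distribution, so only relative levels can be compared, and array medians lay between 4.55 and 4.88. Of 22416 probe sets, 89 control probe sets were left out. Genes came from the platform annotation, which gave 1 symbol for 17783 probe sets, several for 284 and did not list 4260, and 17759 of the first were found by Entrez ID in RefSeq's mouse genes with 0 symbols changed. Strains came from the labels, and 0 array columns lacked a label. The most alike pair of arrays (r = 0.994) differed by up to 4.67, so none were merged.

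Models were fitted with limma 3.58.1 in R 4.3.3, and the procedures were tested on simulated data. The strain effect and segregation were limma's moderated F test, ICCs and their 95% intervals were computed from one-way variance components, parental strains were contrasted in a model of every strain (93 residual degrees of freedom), and family contrasts used 1 mean per strain. P-values were adjusted by Benjamini-Hochberg over 22327 probe sets and called below 0.05. Relations to marker lists were tested over strain means with 100000 two-sided permutations, a score being the mean of the markers' centred log2 values.

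Members and lists were chosen with earlier results of these data known. Named were the 20 called carriers with the largest among-strain SD, the 5 largest called each way in each parental contrast, the 4 called with the highest ICC in each family, the 3 largest called each way between families, up to 3 members of each class by mean level, and the vessel wall list. Others, such as Slc40a1, were named after their values were seen. Alternatives were another probe set per gene, a filter on dim probe sets, other sets of features tested, array medians subtracted, BXD32/TyJ included, array number as a block, marker scores as covariates, arrays left out, a threshold of 0.01, and replicates or strains left out.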

Additional observations from a re-analysis of the deposited data

Results flagged for a closer look

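In the 3 strains with 4 arrays, 81 tests (27 carriers in each) asked whether 1 array lay far from the other 3, and 3 did; chance alone flags about 1 in 20. Slc46a2 in BXD19/TyJ read 5.63 on 1 array, and the others read 3.10 or less. That array had a squamous epithelium score of 4.72, against -0.35 or lower on the others, and the part of those markers was not tested. Slc28a2 in BXD19/TyJ read 6.81 on 1 array, against 6.10 or less on the others. Slc35b1 in AXB19b/PgnJ read 8.21 on 1 array and 8.05 or less on the others, a narrow gap.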

How the results depend on the processing

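The count of carriers differing between strains stayed within 1.5 times its value of 111 under every alternative run except within the higher array numbers (42); it was 110 to 113 without single parental arrays and 100 to 115 without single strains. The smaller counts moved more. BXD against BXH gave 0 with array medians subtracted, with BXD32/TyJ included, with the arrays of high thymocyte or squamous score omitted, and at a threshold of 0.01. With BXD32/TyJ included, segregation in BXD gave 25 and AXB/BXA against BXD 2. With marker scores as covariates, DBA/2J against C57BL/6J gave 5, segregation in AXB/BXA 19 and in BXH 11. DBA/2J gave 1 with array number as a covariate, which could not be fitted for segregation in BXD. With those 70 arrays omitted, segregation gave 3 in AXB/BXA, 20 in BXD and 1 in BXH. At 0.01, A/J gave 1, DBA/2J 1, C3H/HeJ 2, segregation 5, 19 and 2 in the same order of families, and AXB/BXA against BXD 2. Leaving out single arrays gave 0 to 5 for A/J, 0 to 3 for DBA/2J and 1 to 13 for C3H/HeJ. Leaving out single strains gave 4 to 16 in AXB/BXA, 30 to 62 in BXD, 0 to 10 in BXH, 3 to 7 for AXB/BXA against BXD, 0 to 1 for BXD against BXH and 0 for AXB/BXA against BXH. Only Slc25a37 in C3H/HeJ reversed, to 1.67 with its most variable probe set. The cause of these changes was not tested, beyond the smaller number of arrays where arrays were left out. Dim carriers, 112 of 252, have levels near the olfactory receptor reference, which limits what can be seen of their differences. No paired analysis was possible because the labels give strains no shared replicate numbers.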
